A study of Homo sapiens with 6 samples.

Results

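SUSD2 RNA was far less abundant in 22RV1 cells carrying a hairpin against IMPA1 or against IMPDH2 than in 22RV1 cells carrying a control hairpin. Its normalized read count averaged 77.5 ± 4.65 in shIMPA1 cells and 59.2 ± 3.71 in shIMPDH2 cells, against 8322 ± 1217 in shLuc cells (SD, n = 2 each). The gene is 1 of the 17811 listed, and it was picked because its level was lower in both knockdowns. Its differences from shLuc are therefore given as a description, without a test.

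SUSD2 (sushi domain containing 2) is a membrane protein that crosses the plasma membrane once. Its large extracellular part carries a somatomedin B domain, an AMOP domain, a von Willebrand factor type D domain and a sushi domain, the short module that is also found in many complement regulators. It is known to bind galectin-1 and the small secreted peptide encoded by GPR15LG, it is the W5C5 antigen of mesenchymal stromal cells, and it serves as a surface marker of naive human pluripotent cells. Roles that both promote and restrain tumour growth have been described for it in different cancers.

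22RV1 is an established human prostate cancer cell line. The first group stably expressed a hairpin against IMPA1 (shIMPA1), the inositol monophosphatase that releases free inositol. The second stably expressed a hairpin against IMPDH2 (shIMPDH2), the enzyme of the rate-limiting step of guanine nucleotide synthesis. The reference cells stably expressed a hairpin against luciferase (shLuc), a gene that human cells do not have. Every group had 2 libraries of poly(A) RNA and grew in the same serum-supplemented medium, and no further treatment was given. The labels give 1 hairpin name per group and do not state that replicate libraries were separate cultures. A p-value here thus reflects library-to-library spread, part or all of which may be technical. Both knockdowns were set against the same pair of shLuc libraries. Parental 22RV1 cells without a hairpin were not analysed here, so a level that was raised in shLuc and a level that was lowered in both knockdowns cannot be told apart.

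The libraries held 26215122 and 27601249 reads in the listed genes for shIMPA1, 20828900 and 22442454 for shIMPDH2, and 27405563 and 27773294 for shLuc. The hairpins' own targets were only moderately lower. IMPA1 had normalized counts of 957 and 1101 in shIMPA1 against 1621 and 1331 in shLuc, a log2 fold change of -0.52 (limma adjusted p = 0.0145). IMPDH2 had 2932 and 3166 in shIMPDH2 against 4270 and 5032 in shLuc, a log2 fold change of -0.61 (limma adjusted p = 0.00999). The IMPA1 call was lost without the first shLuc library (limma adjusted p = 0.159). For IMPDH2, leaving out either shIMPDH2 library or the second shLuc library ended the call (limma adjusted p of 0.0787 to 0.127). The prostate luminal markers were present in every group. All 10 had a row, and their summed normalized count was 95770 to 98129 in shIMPA1, 102236 to 109243 in shIMPDH2 and 124325 to 126822 in shLuc.

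SUSD2 (ENSG00000099994) lies on the plus strand of chromosome 22, at positions 24181259 to 24189110 of GRCh38. GENCODE release 29 gives it 2 transcripts, of which 1 is protein coding, with 15 exons and 3404 bases. No other gene of that annotation overlaps it, so an overlapping neighbour gives no reads to its count. A related pseudogene, SUSD2P2, is annotated elsewhere on the same chromosome. Per the labels' protocols only unique reads were counted, so reads that match both places equally well would be missing from the SUSD2 count.

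The normalized count of SUSD2 was 80.8 and 74.2 in the shIMPA1 libraries, 56.6 and 61.9 in the shIMPDH2 libraries, and 7462 and 9183 in the shLuc libraries. All 4 knockdown libraries were far below both shLuc libraries, and the groups did not overlap. The underlying reads numbered 90 and 86 in shIMPA1, 49 and 55 in shIMPDH2, and 8290 and 10494 in shLuc. SUSD2 was thus still detected in every knockdown library, with at least 49 reads. The 95% exact Poisson intervals of the normalized counts were 65.0 to 99.3 and 59.4 to 91.6 in shIMPA1, and 41.9 to 74.8 and 46.6 to 80.5 in shIMPDH2. In shLuc they were 7302 to 7624 and 9008 to 9360. The intervals of the shLuc libraries do not overlap each other, so their spread was wider than counting error. Expressed against the shLuc mean, 0.931% of the SUSD2 signal was left in shIMPA1 and 0.712% in shIMPDH2. In bulk RNA, fewer SUSD2-expressing cells and less SUSD2 RNA per cell cannot be told apart.

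**Figure D1:**
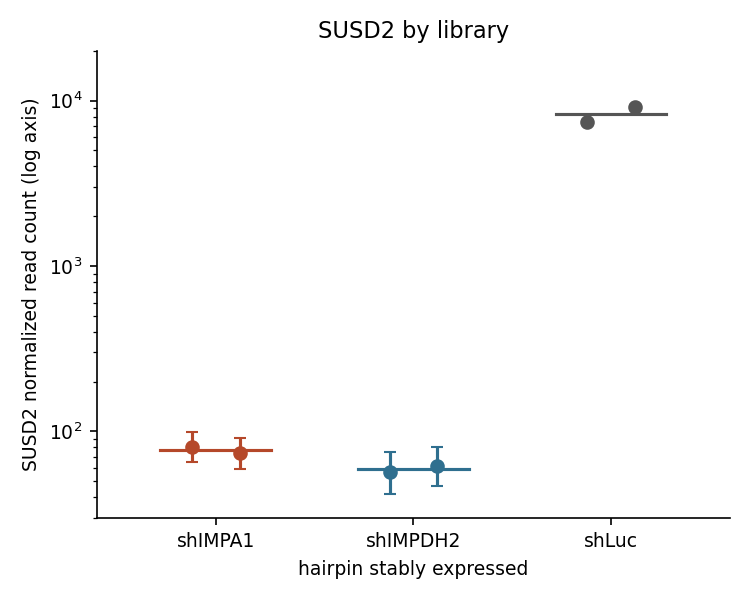
SUSD2 normalized read count (log axis) in each of the 6 libraries by stably expressed hairpin, with the group mean as a line and the 95% exact Poisson interval as bars, which are narrower than the points in shLuc. The shIMPA1 and shIMPDH2 libraries lie between 56.6 and 80.8, and the shLuc libraries at 7462 and 9183.

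Per length of transcript, SUSD2 was among the abundant RNAs of the shLuc cells. TPM, a length-corrected share of the library, was computed from the recovered reads and the summed exon length. For SUSD2 that length was 5279 bases over both transcripts, against 3404 for the coding transcript alone, which would give higher TPM. SUSD2 had 2.19 and 2.01 TPM in shIMPA1, 1.50 and 1.53 TPM in shIMPDH2, and 183 and 236 TPM in shLuc. By TPM it ranked 14282 and 14317 of 17750 genes in the shIMPA1 libraries and 14845 and 14553 in the shIMPDH2 libraries. In the shLuc libraries it ranked 857 and 659. It therefore stood above 16.4% to 19.5% of these genes in the knockdown libraries and above 95.2% and 96.3% of them in the shLuc libraries.

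The log2 fold change of SUSD2 was -6.72 (SE 0.15) in shIMPA1 against shLuc and -7.10 (SE 0.15) in shIMPDH2 against shLuc, where the medians over all 17742 tested genes were 0.02 and -0.01. As ratios of group means, SUSD2 was 107-fold lower in shIMPA1 and 141-fold lower in shIMPDH2 than in shLuc. Taking each knockdown library against each shLuc library gave 92.4-fold to 124-fold for shIMPA1 and 121-fold to 162-fold for shIMPDH2. Every pairing of libraries gave a difference of nearly the same size. In the authors' deposited table, whose header names neither the comparison nor its direction, SUSD2 had the lowest log2 fold change of all 17811 genes, -7.00, and SLC17A9 the next lowest, -5.56.

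SUSD2 ranked second among the tested genes by log2 fold change in each comparison. In shIMPA1 it came after NUDT12, which had 0 reads in shIMPA1 and 341 in shLuc. In shIMPDH2 it came after DDX53, which had 1 read in shIMPDH2 and 469 in shLuc. The fitted changes of these other genes rest on almost no knockdown reads and vary with the value added before taking logarithms, whereas SUSD2 kept 176 reads in shIMPA1 and 104 in shIMPDH2. Ranked by the smaller of the 2 falls, SUSD2 came first of all genes, followed by DDX53, SLC17A9 and A1CF. For scale, 480 genes were more than 2-fold lower in both knockdowns than in shLuc, 87 more than 4-fold and 24 more than 8-fold. In absolute terms, the difference in SUSD2 from shLuc was -8245 normalized counts in shIMPA1, rank 50 among the losses of 17811 genes, and -8263 in shIMPDH2, rank 35.

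Among genes expressed as highly as SUSD2, nothing else came near it. In shLuc, 401 other tested genes had a mean normalized count at or above that of SUSD2. Of these, 1 was more than 2-fold lower in both knockdowns. That was MCM3, a subunit of the replicative helicase, whose smaller fall was -1.47 on the log2 scale. The deepest change among the 401 in shIMPDH2 was that of PDK4, a kinase that inhibits pyruvate dehydrogenase, at -1.74, while in shIMPA1 PDK4 was higher than in shLuc, at 1.31. These genes were picked by their values and are set beside SUSD2 for scale.

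**Figure D2:**
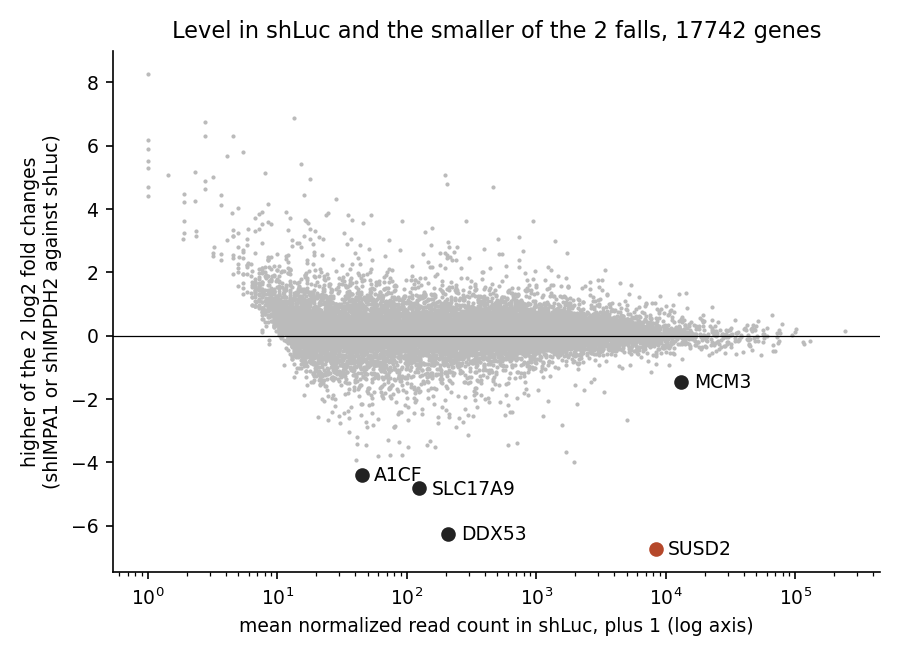
Mean normalized read count in shLuc plus 1 (log axis) against the higher of the 2 log2 fold changes, shIMPA1 or shIMPDH2 against shLuc, for the 17742 tested genes, 1 point per gene. SUSD2, at -6.72, lies lowest and far to the right of DDX53, SLC17A9 and A1CF, and MCM3 is the gene of comparable level with the deepest smaller fall.

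The difference between the knockdowns did not choose the gene and was tested. SUSD2 was slightly lower in shIMPDH2 than in shIMPA1, with a log2 fold change of -0.38 (SE 0.15), and both shIMPDH2 libraries were below both shIMPA1 libraries. The ratio of group means was 0.764, and the 95% confidence interval of the ratio fitted by limma was 0.607 to 0.969. The unadjusted limma p was 0.0298 and the adjusted p over all tested genes 0.0902, so the difference did not pass the threshold of 0.05, which 26.1% of the tested genes passed in this comparison (13.5% higher and 12.6% lower). The counting intervals of the libraries overlap between the knockdowns. The call rested on the libraries used, since without the second shIMPA1 library the log2 fold change was -0.44 with a limma adjusted p of 0.0115.

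SUSD2 belongs to a group of genes named for the sushi domain, SUSD1 to SUSD6, which are not a single family by descent. In shLuc cells SUSD2 made up 93.9% of their summed TPM, against 12.6% in shIMPA1 and 12.7% in shIMPDH2. SUSD6 averaged 6.99 ± 0.426 TPM in shIMPA1, 5.57 ± 0.196 TPM in shIMPDH2 and 5.82 ± 0.677 TPM in shLuc (SD, n = 2 each), and was the most abundant of the 6 in both knockdowns. SUSD3 averaged 4.78 TPM in shIMPA1, 1.53 TPM in shIMPDH2 and 5.08 TPM in shLuc. SUSD5 averaged 1.70, 2.32 and 1.71 TPM in the same order of groups, while SUSD1 and SUSD4 stayed at or below 0.750 TPM in every group mean. SUSD2 itself ranked 3 of the 6 in shIMPA1 and 4 of the 6 in shIMPDH2, where SUSD3 at 1.53 ± 0.364 TPM and SUSD2 at 1.51 ± 0.0198 TPM differed by less than their spread. Of the other 5, SUSD3 alone passed the test against shLuc, with a log2 fold change of -1.67 in shIMPDH2 (limma adjusted p = 0.00455), and without the second shIMPDH2 library or the second shLuc library the adjusted p was up to 0.0939. Nowhere among the other 5 did the mean levels differ between groups on the scale of SUSD2.

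A wider list of 39 human genes for proteins with sushi domains held the other SUSD genes but not SUSD2, and 24 of them had a row and were tested. In shIMPA1, 4 rose and 3 fell, or 29.2% of them, beside 30.2% of all tested genes (14.0% higher and 16.2% lower). In shIMPDH2, 0 rose and 10 fell, or 41.7%, beside 17.0% of all tested genes (7.86% higher and 9.15% lower). Their median log2 fold change was 0.04 in shIMPA1 and -0.58 in shIMPDH2, where the medians over all genes were near 0. The count in shIMPDH2 depended strongly on single libraries. It was 2 to 6 when a shIMPDH2 or a shLuc library was left out and 13 without either shIMPA1 library, while the calls over all genes, 3018 with every library, numbered 773 to 998 and 6383 to 6386 in the same fits. In shIMPA1, 3 were called without the second shLuc library, where the calls over all genes numbered 2147 in place of 5361.

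SRPX, which encodes an extracellular sushi-repeat protein, was lower in both knockdowns, as SUSD2 was, but by far less. SRPX had normalized counts of 73.6 and 56.9 in shIMPA1, 57.8 and 70.9 in shIMPDH2, and 226 and 265 in shLuc. The log2 fold change was -1.90 in shIMPA1 (limma adjusted p = 1.29e-04) and -1.92 in shIMPDH2 (limma adjusted p = 2.19e-04). C1R, the complement protease that starts the classical cascade, fell by 1.83 on the log2 scale in shIMPDH2 (limma adjusted p = 0.00119). In shIMPA1 its log2 fold change of -0.81 had a limma adjusted p of 0.0429, which rose to 0.209 without the second shIMPA1 library. CD55, the decay-accelerating factor that protects cells from complement, rose in shIMPA1 with a log2 fold change of 1.52 (limma adjusted p = 2.75e-04). It did not pass the test in shIMPDH2, at -0.15. CSMD1, a very large membrane protein built of CUB and sushi domains, rose in shIMPA1 with a log2 fold change of 1.09 (limma adjusted p = 0.00161).

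The other domain types of SUSD2 were represented by 22 further genes, of which 12 had a row and were tested. In shIMPA1, 3 rose and 0 fell, beside 30.2% of all tested genes called. In shIMPDH2, 2 rose and 0 fell, or 16.7% of the 12, beside 17.0% of all tested genes. Both counts are near the shares over all genes. FCGBP, a secreted mucus protein with repeated von Willebrand factor type D domains, rose in both, with log2 fold changes of 1.58 in shIMPA1 (limma adjusted p = 7.82e-04) and 1.55 in shIMPDH2 (limma adjusted p = 0.00145). MUC5AC, a gel-forming mucin with the same domain, rose in shIMPA1 with a log2 fold change of 1.71 (limma adjusted p = 8.72e-05). SBSPON, which carries a somatomedin B domain, rose in shIMPDH2 with a log2 fold change of 1.91 (limma adjusted p = 0.00302), a call lost without the first shLuc library (limma adjusted p = 0.0531). TECTA, an inner-ear matrix protein, had a log2 fold change of 1.01 in shIMPA1 with a limma adjusted p of 0.0402 that rose to 0.238 without the second shIMPA1 library. None of these genes fell in both knockdowns.

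Galectin-1, encoded by LGALS1 on chromosome 22 (37675608 to 37679806, GRCh38), is the best known binding partner of SUSD2. Its normalized count was 3420 and 1682 in shIMPA1, 3246 and 3773 in shIMPDH2, and 7749 and 7633 in shLuc. All 4 knockdown libraries were below both shLuc libraries, and the shIMPA1 libraries differed from each other about as much as the first of them differed from shLuc on the log2 scale. LGALS1 fell in shIMPA1 by 1.68 on the log2 scale (limma adjusted p = 7.13e-04), with -2.19 to -1.17 when 1 library was left out. In shIMPDH2 its log2 fold change of -1.14 had a limma adjusted p of 0.0108, which rose to between 0.0740 and 0.112 when a shIMPDH2 or a shLuc library was left out. Of 11 galectins and SUSD2 ligands, 4 were tested, and LGALS1 was the 1 called in each comparison, beside 30.2% and 17.0% of all tested genes. GPR15LG had no row among the genes analysed here.

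The D cyclins and their kinases, which drive entry into the cell cycle and have been placed downstream of SUSD2 in colon cancer cells, had 4 of 5 members tested. In shIMPA1, 2 of the 4 fell and 0 rose, beside 30.2% of all tested genes called, and in shIMPDH2, 1 of the 4 fell and 0 rose, beside 17.0%. CDK6 fell in shIMPDH2 by 1.45 on the log2 scale (limma adjusted p = 8.49e-05). In shIMPA1 the log2 fold change of CDK6 was -0.43, with a limma adjusted p of 0.0372 that rose to 0.156 and 0.183 without either shLuc library. CCND3, cyclin D3, had a log2 fold change of -0.82 in shIMPA1 (limma adjusted p = 0.00395), which missed the threshold without the second shLuc library (limma adjusted p = 0.0678).

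SUSD2 is used to sort mesenchymal stromal cells, and 8 of 12 other surface markers of those cells were tested. In shIMPA1, 2 rose and 3 fell, or 62.5%, beside 30.2% of all tested genes. In shIMPDH2, 1 rose and 2 fell, or 37.5%, beside 17.0% of all tested genes. MCAM, an adhesion molecule of the immunoglobulin family, was lower in both knockdowns. Normalized counts of MCAM were 144 and 78.5 in shIMPA1, 80.9 and 84.4 in shIMPDH2, and 399 and 442 in shLuc. The knockdown and shLuc libraries did not overlap. MCAM had log2 fold changes of -1.97 in shIMPA1 (limma adjusted p = 2.62e-04) and -2.33 in shIMPDH2 (limma adjusted p = 1.58e-04). NGFR, the low-affinity neurotrophin receptor, had log2 fold changes of -1.26 in shIMPA1 (limma adjusted p = 0.0159) and -1.52 in shIMPDH2 (limma adjusted p = 0.0112). Dropping either shLuc library ended both NGFR calls, and dropping either shIMPDH2 library also ended the one in shIMPDH2. With 1 library left out its log2 fold change ran from -1.80 to -0.72 in shIMPA1 and from -1.61 to -1.43 in shIMPDH2. CD44, the hyaluronan receptor, had positive changes of 0.95 and 0.98 with limma adjusted p of 0.00678 and 0.00985, and these calls also depended on single libraries (limma adjusted p of up to 0.0813 and 0.121). LEPR, the leptin receptor, had a log2 fold change of -0.71 in shIMPA1 (limma adjusted p = 0.0191), which reached 0.135 when a shLuc library was dropped.

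Of 26 other genes of naive pluripotency, 9 were tested. In shIMPA1, 3 rose and 2 fell, and in shIMPDH2, 2 rose and 3 fell, or 55.6% in each comparison, beside 30.2% and 17.0% of all tested genes. TFCP2L1, a transcription factor of the naive state, rose in shIMPA1 with a log2 fold change of 2.11 (limma adjusted p = 4.74e-04). In shIMPDH2 its log2 fold change was 1.07, with a limma adjusted p of 0.0287 that rose to between 0.110 and 0.229 when a shIMPDH2 or a shLuc library was left out. ESRRB, an orphan nuclear receptor of the same network, fell by 2.09 on the log2 scale in shIMPDH2 (limma adjusted p = 3.59e-04) and was at 0.05 in shIMPA1. TFAP2C had a log2 fold change of 1.85 in shIMPA1 (limma adjusted p = 0.00741), which missed the threshold without the first shLuc library (limma adjusted p = 0.0745). POU5F1 had a log2 fold change of -1.82 in shIMPA1 (limma adjusted p = 0.00927, and 0.114 without the first shLuc library). Its group means lay between 7.08 and 27.1 normalized counts, and near-identical pseudogenes make its count uncertain. Members of this list were higher and lower in each knockdown, while SUSD2 was lower in both.

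**Figure D3:**
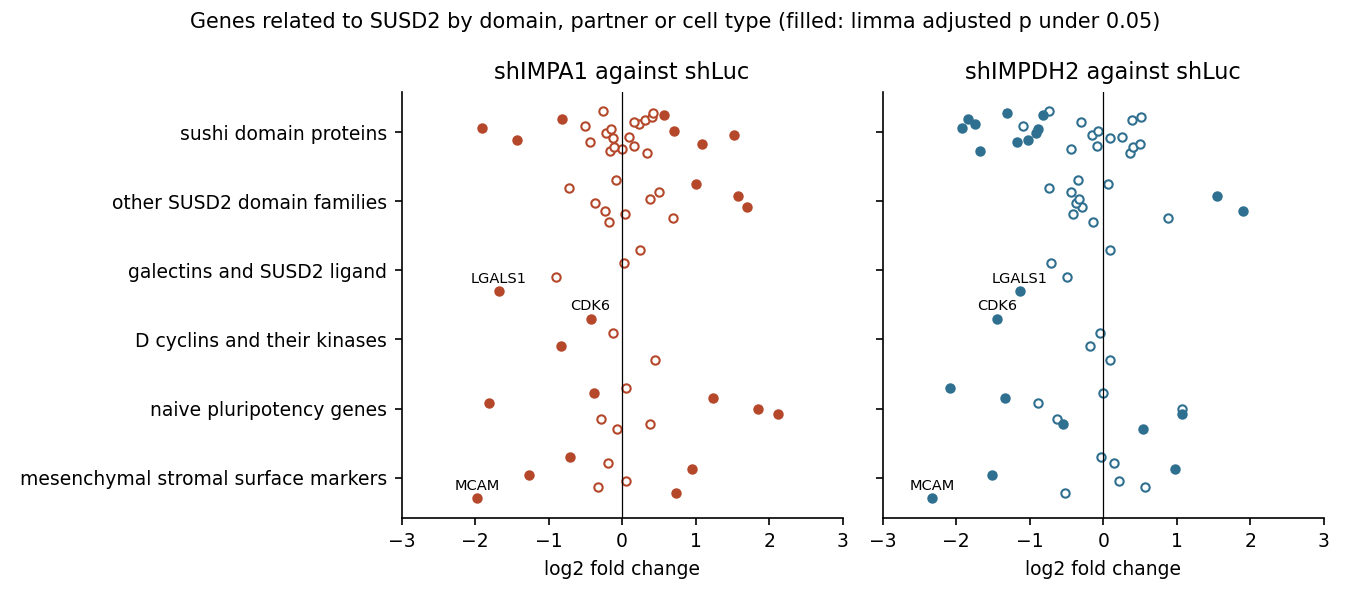
Log2 fold changes in shIMPA1 and shIMPDH2 against shLuc of the tested genes in 6 lists related to SUSD2 by domain, partner or cell type, 1 point per gene, filled where the limma adjusted p was under 0.05. Most points lie between -2 and 2, with MCAM at -1.97 and -2.33 and LGALS1 at -1.68 and -1.14. SUSD2 itself is not drawn.

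Markers of cell types that a cell line should not hold were examined beside SUSD2. Of 5 endothelial markers, 0 had a row. Of 5 leukocyte markers, 1 had a row, LYZ, with normalized counts of 18.1 to 22.4 in shIMPA1, 9.0 to 12.7 in shIMPDH2 and 14.0 to 23.4 in shLuc. Of 7 fibroblast markers, 4 had a row, and COL1A2, PDGFRB and THY1 had none. Their summed normalized count was 282 to 395 in shIMPA1, 214 to 218 in shIMPDH2 and 516 to 555 in shLuc. The sum was lower in the same libraries as SUSD2. Each of the 4 had a lower mean in both knockdowns than in shLuc, but the sizes of these differences were not alike. Of the 3 that were tested, 0 rose and 2 fell in each comparison, beside 30.2% and 17.0% of all tested genes. LUM, a collagen-binding proteoglycan, fell in both, with log2 fold changes of -2.55 in shIMPA1 (limma adjusted p = 0.00162) and -3.80 in shIMPDH2 (limma adjusted p = 2.59e-04). COL1A1, the most abundant of the 4, overlapped shLuc in shIMPA1, with normalized counts of 333 and 250 against 300 and 364. That change of -0.19 was not called (limma adjusted p = 0.443), whereas the fall of COL1A1 by 0.80 in shIMPDH2 was (limma adjusted p = 0.0120). The shIMPDH2 call was lost without any 1 shIMPDH2 or shLuc library, where the log2 fold change ran from -0.94 to -0.66. COL3A1, with 2 and 9 reads in shIMPA1 against 21 and 29 in shLuc, was called lower in shIMPA1 alone. Its log2 fold change there was -2.21, and the call was lost without either shLuc library (-2.41 and -2.01). In shIMPDH2 its change of -1.40 was not called (limma adjusted p = 0.124). DCN was not tested, and its counts of 8.98 and 8.63 in shIMPA1 were near the 9.90 and 8.75 in shLuc. The whole fibroblast sum in shLuc was far below the SUSD2 count of those libraries, and its part in the SUSD2 difference was not tested. Among the luminal markers, 2 rose and 4 fell in shIMPA1, and 4 rose and 2 fell in shIMPDH2, or 60.0% in each comparison, beside 30.2% and 17.0% of all tested genes. TMPRSS2, an androgen-regulated protease, rose with log2 fold changes of 1.55 in shIMPA1 and 2.01 in shIMPDH2 (limma adjusted p = 5.76e-04 and 1.97e-04).

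The genes whose pattern over the 6 libraries lay nearest to that of SUSD2, by Euclidean distance between centred log2 profiles, were DDX53, SLC17A9, EYA2, A1CF, CRISPLD1, PLPP4, DCC and HCLS1. Their distances ran from 0.918 for DDX53 to 3.41 for HCLS1, where the median over the 16313 genes compared was 8.02. Over these 6 libraries their Pearson correlation with SUSD2 was 0.951 to 0.997, a description of genes chosen for likeness. By the correlation in place of the distance, 1 of the 8 stayed among the nearest 8, SLC17A9, and 19 genes had a correlation over 0.99.

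DDX53, a DEAD-box helicase gene on the X chromosome (22999961 to 23003589, GRCh38) known as a cancer-testis antigen, was the nearest. Its normalized count was 1.80 and 1.73 in shIMPA1, 0 and 1.12 in shIMPDH2, and 203 and 213 in shLuc. A long noncoding RNA, PTCHD1-AS, overlaps it on the other strand, and whether strand was used in counting is not given in the sources used here. SLC17A9, a vesicular nucleotide transporter, had 8 reads in shIMPA1, 5 in shIMPDH2 and 280 in shLuc. EYA2, a transcriptional coactivator with phosphatase activity, had 5 reads in shIMPA1, 1 in shIMPDH2 and 132 in shLuc. Each of these had 8 reads or fewer in either knockdown and stood far below SUSD2 in shLuc.

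CRISPLD1, a secreted protein with a CAP domain, was the 1 gene among the 8 with more than 100 reads in each knockdown. Its normalized count was 81.7 and 71.6 in shIMPA1, 126 and 121 in shIMPDH2, and 1984 and 1953 in shLuc, which gave log2 fold changes of -4.67 and -3.98. In the shIMPA1 libraries its count was close to that of SUSD2. In shIMPDH2 it was higher than in shIMPA1, the order opposite to that of SUSD2. A1CF, an RNA-binding cofactor of cytidine editing, had 1 read in shIMPA1, 2 in shIMPDH2 and 99 in shLuc. PLPP4, a lipid phosphatase, had 0 in shIMPA1, 3 in shIMPDH2 and 89 in shLuc. DCC, the netrin receptor, had 18 in shIMPA1, 4 in shIMPDH2 and 226 in shLuc, and HCLS1, an actin regulator of blood cells, had 10, 5 and 164.

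**Figure D4:**
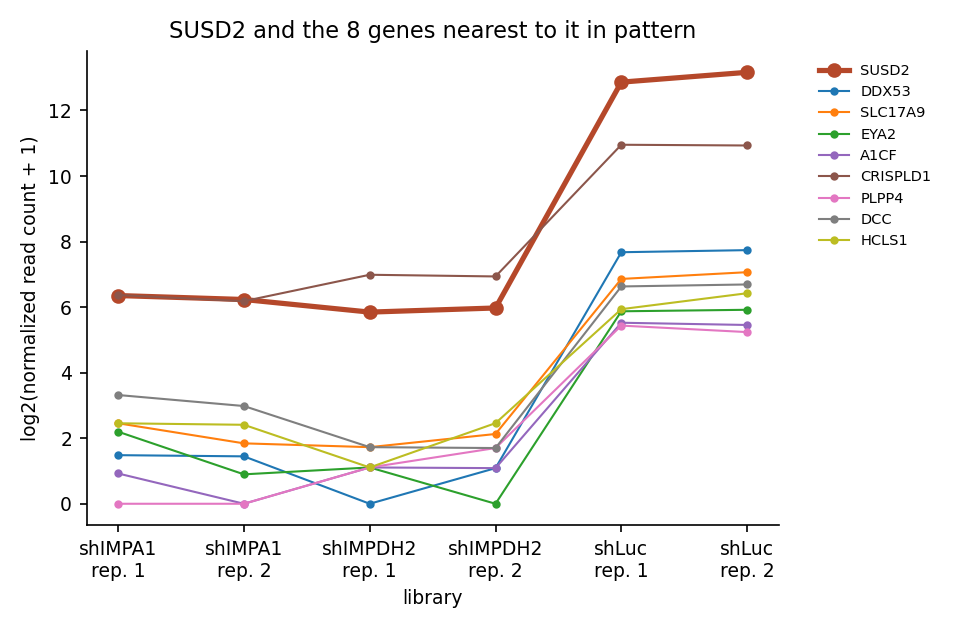
Log2(normalized read count + 1) in each library for SUSD2 (thick line) and the 8 genes nearest to it in pattern. All are lower in both knockdowns than in shLuc, and SUSD2 stands above the other 8 in shLuc, with CRISPLD1 next at 1984 and 1953 normalized counts.

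No tested gene near SUSD2 was lower in the knockdowns to a like degree. Within 500 kb of SUSD2, 58 genes are annotated, and 27 of them had a row and were tested. In shIMPA1, 0 of the 27 rose and 3 fell, or 11.1%, and the log2 fold changes ran from -2.52 to 0.56 with a median of 0.11. In shIMPDH2, 2 rose and 0 fell, or 7.41%, and the log2 fold changes ran from -0.99 to 0.63 with a median of -0.13. Both shares were under those of all tested genes, 30.2% and 17.0%. The counts moved with the libraries used, as did those over all genes. In shIMPA1, 9 neighbours were called without the first shIMPA1 library and 5 without the second, where 7940 and 5355 of all genes were called, and 2 in each of the other fits with a library left out. In shIMPDH2, 6 were called without either shIMPA1 library, and 0 or 1 when a shIMPDH2 or a shLuc library was left out. With a window of 250 kb, 0 neighbours were called in either comparison. The tested genes there were only DDTL, DDT, CABIN1, SPECC1L, ADORA2A and a gene without a symbol. With so few genes, 0 calls can hardly be set against the shares of 30.2% and 17.0%.

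CABIN1, a calcineurin-binding protein whose gene ends 2.63 kb before SUSD2 begins, was the nearest tested neighbour. Its normalized count was 1804 and 1519 in shIMPA1, 1806 and 1659 in shIMPDH2, and 1582 and 1755 in shLuc, so the groups overlapped. Its log2 fold changes were -0.01 (SE 0.13) and 0.05 (SE 0.13), with limma adjusted p of 0.965 and 0.807. On the other side, SPECC1L, a cytoskeletal crosslinker 81.7 kb away, had log2 fold changes of 0.06 in shIMPA1 and 0.27 in shIMPDH2, and neither passed the test. DDT, a tautomerase related to MIF, had 0.06 and 0.15, and ADORA2A, an adenosine receptor, had -0.76 and -0.18, also without passing it.

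Of the neighbours that passed, DERL3, a component of protein degradation at the endoplasmic reticulum 342 kb away, was the 1 with more than a 2-fold change. Its normalized count was 264 and 183 in shIMPA1, 1033 and 1225 in shIMPDH2, and 1289 and 1236 in shLuc. It fell in shIMPA1 with a log2 fold change of -2.52 (limma adjusted p = 4.45e-06) and had -0.17 in shIMPDH2, and it was higher in shIMPDH2 than in shIMPA1 (log2 fold change 2.35, limma adjusted p = 9.50e-06). That pattern was unlike that of SUSD2, which was lower in both. MIF, a cytokine, and SNRPD3, a core splicing protein, fell in shIMPA1 with log2 fold changes of -0.47 and -0.74 (limma adjusted p = 0.0371 and 0.00112). The MIF call held in 1 of 6 fits with a library left out (limma adjusted p of up to 0.171), and the SNRPD3 call in all 6. GUCD1 and LRRC75B rose in shIMPDH2 with log2 fold changes of 0.63 and 0.56 (limma adjusted p = 0.00551 and 0.0241), and both missed the threshold without any 1 shIMPDH2 or shLuc library (limma adjusted p of up to 0.0749 and 0.223). The span of DERL3 overlaps SMARCB1, that of DDT overlaps DDTL and that of MIF overlaps MIF-AS1. SNRPD3 overlaps GUCD1, LRRC75B and GGT1, and LRRC75B also overlaps GGT1. CABIN1 overlaps a gene without a symbol. Reads of such overlapping genes cannot be told apart with certainty.

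**Figure D5:**
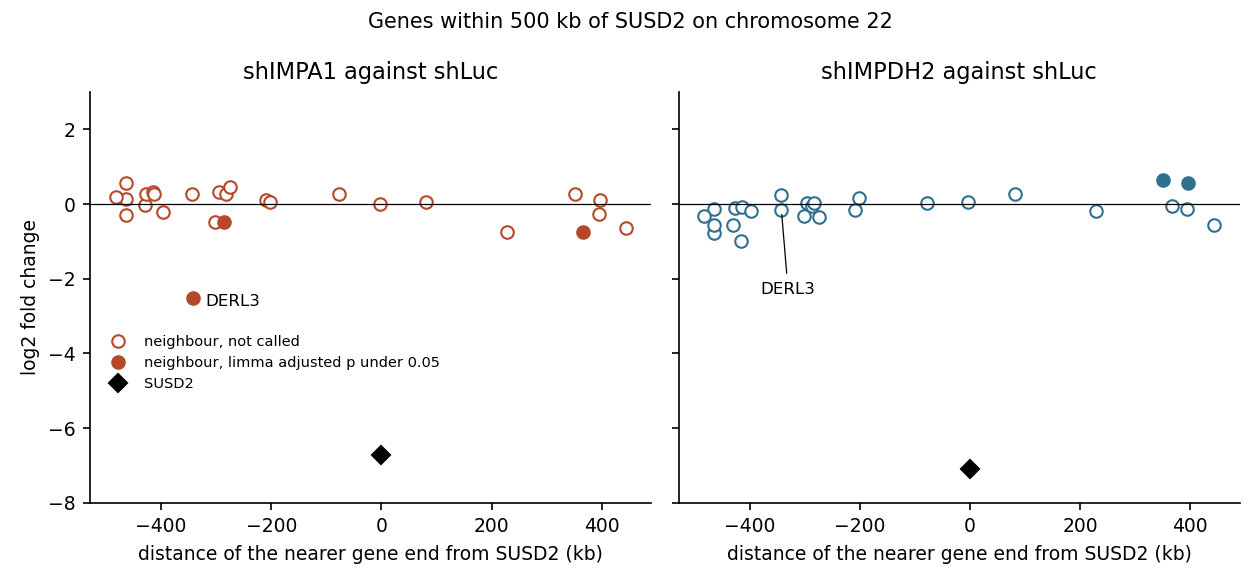
Log2 fold change against the distance of the nearer gene end from SUSD2 (kb) for the 27 tested genes within 500 kb, in shIMPA1 and shIMPDH2 against shLuc, with SUSD2 as a diamond and filled points for a limma adjusted p under 0.05. The neighbours lie between -2.52 and 0.63, and SUSD2 at -6.72 and -7.10.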

How the data were processed

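The submitters' processing notes name Trimmomatic 0.36, STAR 2.5.2b, featureCounts in Subread 1.5.2, DESeq2 and the build GRCh38. The deposited signal values are read counts that the authors divided by a size factor per library, as the values themselves show. Whole reads were recovered for 99.98% to 100% of genes per library (tolerance 0.05 reads). The deposited log2 fold change and p-value columns of the authors entered no test. The planned count test gave way to limma 3.58.1 (R 4.3.3) with a mean-variance trend on log2(value + 1), which understates changes of low genes. Genes with at least 10 in at least 2 libraries were fitted in 3 groups (3 residual degrees of freedom, Benjamini-Hochberg, threshold 0.05), after the procedure was tested on simulated data. Symbols were found for 16372 of 17811 identifiers, and 17750 were in GENCODE 29. Named genes were the hairpin targets, the 8 nearest in pattern, the 3 next in rank, the 3 nearest tested neighbours a side and those over 2-fold, and up to 4 called members per list. The genes set beside SUSD2 by level, the other SUSD genes, MIF, SNRPD3 and LRRC75B were added after their values were seen. SUSD2, the lists and the rules were chosen with earlier results of these data known. The Poisson intervals cover counting error only, while the interval of the ratio between the knockdowns comes from the limma fit. Changes of pseudocount, filter, model and libraries were tried, with edgeR 4.0.16 and DESeq2 1.42.0 on recovered reads.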

Additional observations from a re-analysis of the deposited data

How the results depend on the processing

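The log2 fold change of SUSD2 against shLuc stayed between -6.87 and -6.57 in shIMPA1 and between -7.25 and -6.95 in shIMPDH2 over all alternatives. Between the knockdowns it ran from -0.45 to -0.32 when 1 library was left out, and the limma adjusted p, or that of edgeR or DESeq2, was 0.0115 to 0.328 over 14 alternatives, of which 1 passed. The replicate numbers do not pair the libraries (correlations of deviations 0.0418, -0.0488 and 0.000266), and with the replicate block 5298, 2939 and 4537 genes were called, against 5361, 3018 and 4627 without it. Neighbour calls numbered 3 in shIMPA1 and 2 in shIMPDH2. They became 0 and 0 within 250 kb, where fewer genes were tested, and 5 and 8 within 1000 kb, where more were. With 1 library left out they ran from 2 to 9 in shIMPA1 and from 0 to 6 in shIMPDH2. In shIMPDH2 they were also 1 with no mean-variance trend and 6 with only the groups compared. Sushi domain calls ran from 3 to 8 in shIMPA1 and from 2 to 13 in shIMPDH2 with 1 library left out. Of the 8 nearest genes in pattern, 1 stayed by Pearson correlation and 4 with a pseudocount of 5. Signs turned, with 1 library left out, only for values that passed no test: IMPDH2 in shIMPA1 (-0.088 to 0.15), CABIN1 in shIMPA1 (-0.13 to 0.11) and shIMPDH2 (-0.020 to 0.13), DDT (-0.18 to 0.29), SPECC1L (-0.048 to 0.16), SBSPON (-0.48 to 0.013), ESRRB (-0.11 to 0.21), COL1A1 (-0.40 to 0.012), SUSD3 (-0.44 to 0.12), SUSD4 (-0.18 to 0.17), SUSD5 (-0.34 to 0.13) and LRRC75B (-0.028 to 0.27) in shIMPA1, and ADORA2A (-0.41 to 0.045), TECTA (-0.13 to 0.25), LEPR (-0.15 to 0.088), MIF (-0.17 to 0.086) and SNRPD3 (-0.13 to 0.023) in shIMPDH2. Over all genes, calls ran from 2147 to 7940 in shIMPA1 and from 773 to 6386 in shIMPDH2 with 1 library left out. With only the groups compared they numbered 6382 in shIMPDH2, and with no mean-variance trend 3508 in shIMPA1, 1727 in shIMPDH2 and 2909 between the knockdowns. Of 67 named calls against shLuc, 44 held under every alternative that tested them. DDX53, SLC17A9, EYA2, A1CF, PLPP4, DCC and HCLS1 passed the filter through the shLuc libraries only. They were therefore tested in 4 of the 6 fits with a library left out, never without a shLuc library. The cause of these shifts was not tested. Counts of under 100 reads limit the precision of SUSD2 in the knockdowns.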
